A study of Homo sapiens with 3 samples.

Results

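The levels of miR-26 and miR-101 were examined in 3 strains of HCCLM3, a line of metastatic human liver cancer (hepatocellular carcinoma, HCC) cells. All listed names of hsa-miR-26a, hsa-miR-26b and hsa-miR-101 were taken, with every copy and arm, which gave 7 of the 1921 mature miRNA names. The parent strain was labelled with low metastasis, subclone1 with higher metastasis ability to the lung, and subclone2 with metastasis to lung and celiac lymph node. The study's text instead calls its parental line highly metastatic, describes strains grown from single cells, and does not tie them to these labels, so "low" is only the label here. All strains were grown in DMEM without any further treatment given, and each had 1 library. The ratios below therefore compare libraries and have no replicate check.

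A miRNA is cut as a short duplex from a hairpin precursor. Usually the strand of one arm (5p or 3p) is loaded into the silencing complex, and its bases 2 to 8, the seed, pair with target mRNAs and lower their output. miR-26a is an abundant miRNA of normal liver, is often reduced in liver tumours, and represses cyclins of the cell cycle. miR-101 is best known as a repressor of EZH2, the histone methyltransferase of the polycomb complex, and is likewise often reported to be reduced in HCC. These roles are background, since the libraries hold neither normal liver nor target mRNAs.

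The mature sequences show which names can share targets and which can share reads. All 7 names were found in RefSeq (build GRCh38.p14), and the seed is in capitals in each sequence.
hsa-miR-26a-5p: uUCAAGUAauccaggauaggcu
hsa-miR-26b-5p: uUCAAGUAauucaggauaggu
hsa-miR-101-3p: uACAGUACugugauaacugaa
hsa-miR-26a-1-3p: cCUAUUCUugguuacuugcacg
hsa-miR-26a-2-3p: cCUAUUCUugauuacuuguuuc
hsa-miR-26b-3p: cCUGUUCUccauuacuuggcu
hsa-miR-101-5p: cAGUUAUCacagugcugaugcu

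The 5p strands of miR-26a and miR-26b have the same seed, and over their 21 aligned bases they differ at C11U and C21U, counted from the 5′ end with the miR-26a base first. Their longest shared run is 10 bases. How the reads of such close sequences were divided is not given in the sources used here, so the level of each miR-26 name is uncertain. The sum of both would be unaffected by a mere division of reads. It is uncertain too if reads shared by the miR-26 strands were left out or counted under both names. hsa-miR-365a-3p and hsa-miR-365b-3p had equal counts (618 in the parent and 285 in subclone1), so reads that fit both of those names were kept. This does not settle the case of miR-26a-5p and miR-26b-5p, whose sequences differ. miR-101-3p has a different seed. Among the listed names matched to a RefSeq sequence (1576 of 1921), no other shared a run of 12 or more bases with any of these 3 abundant strands, except hsa-miR-1297, which shares 15 bases with hsa-miR-26b-5p and had 0 counts in every library.

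The hairpins are printed next, with the mature strands in capitals, because miR-26a-5p and miR-101-3p are each made from 2 places in the genome.
MIR26A1: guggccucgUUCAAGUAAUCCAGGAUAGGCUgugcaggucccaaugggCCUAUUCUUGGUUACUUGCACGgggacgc
MIR26A2: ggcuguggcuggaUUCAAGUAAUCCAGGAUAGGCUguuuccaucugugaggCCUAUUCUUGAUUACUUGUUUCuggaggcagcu
MIR26B: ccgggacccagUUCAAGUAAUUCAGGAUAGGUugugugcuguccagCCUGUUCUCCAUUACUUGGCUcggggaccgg
MIR101-1: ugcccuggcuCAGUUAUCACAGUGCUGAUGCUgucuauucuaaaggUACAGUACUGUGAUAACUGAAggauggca
MIR101-2: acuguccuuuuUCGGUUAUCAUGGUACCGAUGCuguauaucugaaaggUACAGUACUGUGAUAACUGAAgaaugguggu

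In the GENCODE 29 annotation (GRCh38) the miR-26 hairpins lie in introns of 3 related phosphatase genes, on the strand of the host. MIR26A1 is at chr3:37969404-37969480 (plus strand) in CTDSPL, MIR26A2 at chr12:57824609-57824692 (minus strand) in CTDSP2, and MIR26B at chr2:218402646-218402722 (plus strand) in CTDSP1. These hosts encode phosphatases that act on the tail of RNA polymerase II. MIR101-1, at chr1:65058434-65058508 (minus strand), overlaps no other annotated gene. MIR101-2, at chr9:4850297-4850375 (plus strand), lies in an intron of RCL1, an RNA 3′-terminal phosphate cyclase-like gene, and overlaps an exon of the antisense gene AL158147.1. Within 10 kb of these hairpins the annotation holds 1 other miRNA hairpin, MIR3671, at 592 bases from MIR101-1. The neighbour's product hsa-miR-3671 had 0 counts in every library, compared with at least 3896 for miR-101-3p.

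The values are read counts per mature name, unscaled as deposited, and are given as counts scaled to a library total of 1e+06 (CPM). The parent total of 7902438 was the largest, beside 3570864 for subclone1 and 4568075 for subclone2. At such depths a count of 0 leaves room for a level of 0.380, 0.840 and 0.657 CPM (3 counts). Intervals are exact 95% binomial intervals, which cover counting error only. Of the hepatocyte markers, hsa-miR-122-5p (53, 19 and 18 counts) and hsa-miR-885-5p (0 in each library), were low or absent. The other markers, hsa-miR-192-5p (18528, 60246 and 69068 CPM) and hsa-miR-194-5p (108, 271 and 263 CPM), were at least 2-fold higher in both subclones than in the parent (log2 1.70 and 1.33 in subclone1, 1.90 and 1.28 in subclone2). Markers of blood, endothelial, mesenchymal and neuronal cells summed to at most 8 counts per class and library. Of the muscle markers, hsa-miR-1 had 53, 77 and 32 counts (6.71, 21.6 and 7.01 CPM). It was at least 2-fold higher in subclone1 than in the parent (log2 1.68) and lower in subclone2 than in subclone1 (log2 -1.61). The other muscle markers were near absent, hsa-miR-206 with 6, 5 and 3 counts and hsa-miR-133a with 1 in each library. Under the rules set out below, 9.90% of 192 kept miRNAs were called higher in subclone1 than in the parent. For subclone2 against the parent the share was 5.88% of 187. Between the subclones 4.19% of 191 were called lower in subclone2. The part of the cell-type markers in the results was not tested.

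miR-101-3p, the EZH2 repressor, was the most abundant of the 7 names in every library. It had 9721 counts in the parent (1230 CPM, interval 1206 to 1255), 3896 in subclone1 (1091 CPM, 1057 to 1126) and 4474 in subclone2 (979 CPM, 951 to 1009). The parent was highest and subclone2 lowest, and the intervals did not overlap. By read count it ranked 30, 32 and 32 in these libraries.

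miR-26a-5p, the strand reported to restrain cyclins, was the least abundant of the 3 main strands. It had 3564 counts in the parent (451 CPM, interval 436 to 466), 1206 in subclone1 (338 CPM, 319 to 357) and 1366 in subclone2 (299 CPM, 283 to 315). Here too the parent was highest, and the subclones lay close together with intervals that did not overlap. Its ranks were 50, 52 and 55.

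miR-26b-5p, with the same seed as miR-26a-5p, followed another course. It had 3913 counts in the parent (495 CPM, interval 480 to 511), 1748 in subclone1 (490 CPM, 467 to 513) and 1544 in subclone2 (338 CPM, 321 to 355). The parent and subclone1 had overlapping intervals, while subclone2 stood below them. Together the strands with the miR-26 seed held 946, 827 and 637 CPM in the parent, subclone1 and subclone2. Levels of different miRNAs carry the ligation bias of the library kit, so the order among the 3 strands describes reads only.

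**Figure D1:**
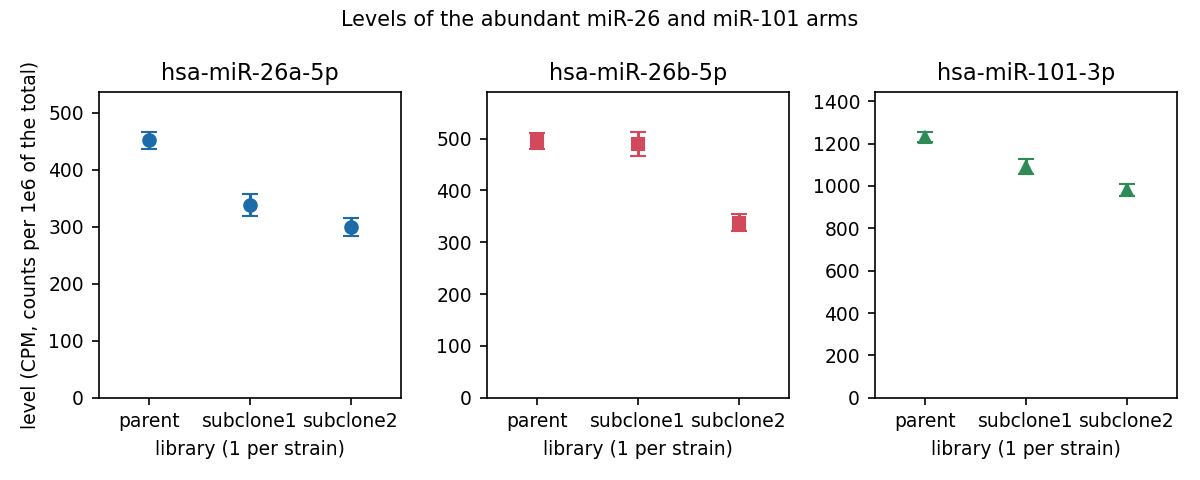
Level in CPM (y axis, from 0) of hsa-miR-26a-5p, hsa-miR-26b-5p and hsa-miR-101-3p in the parent, subclone1 and subclone2 libraries (x axis), with exact 95% binomial intervals as bars. The parent is highest in each panel, and only hsa-miR-26b-5p has overlapping intervals in the parent and subclone1 (495 and 490 CPM).

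The remaining 4 names are the passenger strands, which are mostly degraded after the duplex is opened. hsa-miR-26a-1-3p had 4, 0 and 1 counts in the parent, subclone1 and subclone2, and hsa-miR-26a-2-3p had 7, 1 and 3. hsa-miR-26b-3p had 0, 0 and 1 counts. hsa-miR-101-5p was not detected in any library, which places miR-101-3p at least 3240-fold above it in the parent, 1299-fold in subclone1 and 1491-fold in subclone2 (floor of 3 counts per library). No name is listed for the 5p strand of MIR101-2, whereas miR-101-3p is made from both hairpins. The bound therefore compares the listed names and does not give the strand use of either hairpin.

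The 3p strands made up 0.308% of all miR-26a counts of the parent (interval 0.154 to 0.550). The share was 0.0829% for subclone1 (0.0021 to 0.461) and 0.292% for subclone2 (0.0796 to 0.746). The intervals overlap, so no difference in strand use was detectable at this depth. For miR-26b the 3p strand took 1 of 7206 counts over the 3 libraries, a share of 0.0139% (0.00035 to 0.0773). The 3p strands of miR-26a are particular to a copy, with 5 differences in 22 bases, whereas the 5p strand is identical from both. The 3p counts were too few to show the part of MIR26A1 and MIR26A2 in the miR-26a-5p level.

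Subclone1 was set against the parent to ask how the strain with lung tropism differed in these miRNAs. A miRNA was kept at a mean of at least 10 CPM in the libraries compared, and called at a ratio of at least 2-fold whose interval excluded 1. The log2 ratio had 0.5 counts added to each library. Of the 7 names 3 were kept and 0 were called, where 13.0% of all 192 kept miRNAs were. miR-26a-5p was at 0.749 times the parent level (interval 0.701 to 0.800, log2 -0.42), and miR-101-3p at 0.887 times (0.854 to 0.921, log2 -0.17). miR-26b-5p was at 0.989 times (0.934 to 1.05, log2 -0.016), so a difference was not detectable, and the interval leaves room for one of a few percent either way. The interval lay below 1 for 2 of the 3 strands, as it did for 30.2% of all kept miRNAs. Such intervals are narrow for abundant miRNAs, and this share is not a result about the members.

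Relative to the median of all kept miRNAs, a log2 ratio of 0.02 in subclone1, the distances were -0.43 for miR-26a-5p, -0.19 for miR-101-3p and -0.033 for miR-26b-5p. In the order of ratios, 36 of the 192 kept miRNAs lay below miR-26a-5p, 64 below miR-101-3p and 89 below miR-26b-5p. miR-26a-5p thus stood in the lower part of the distribution and miR-26b-5p near its middle.

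The strain with tropism to lung and lymph node, subclone2, was compared with the parent in the same way. Again 0 of the 3 kept strands were called, beside 10.7% of 187 kept miRNAs. miR-26a-5p was at 0.663 times the parent level (interval 0.622 to 0.706, log2 -0.59), the lowest ratio of any of the 3 strands in the 3 comparisons. miR-26b-5p was at 0.683 times (0.643 to 0.724, log2 -0.55) and miR-101-3p at 0.796 times (0.768 to 0.825, log2 -0.33). All 3 intervals lay below 1, but so did 47.6% of the intervals of kept miRNAs. The median log2 ratio of the kept miRNAs was -0.15. Relative to that median the distances were -0.44 for miR-26a-5p, -0.40 for miR-26b-5p and -0.18 for miR-101-3p. Among the 187 kept miRNAs 31, 37 and 63 lay below these strands.

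**Figure D2:**
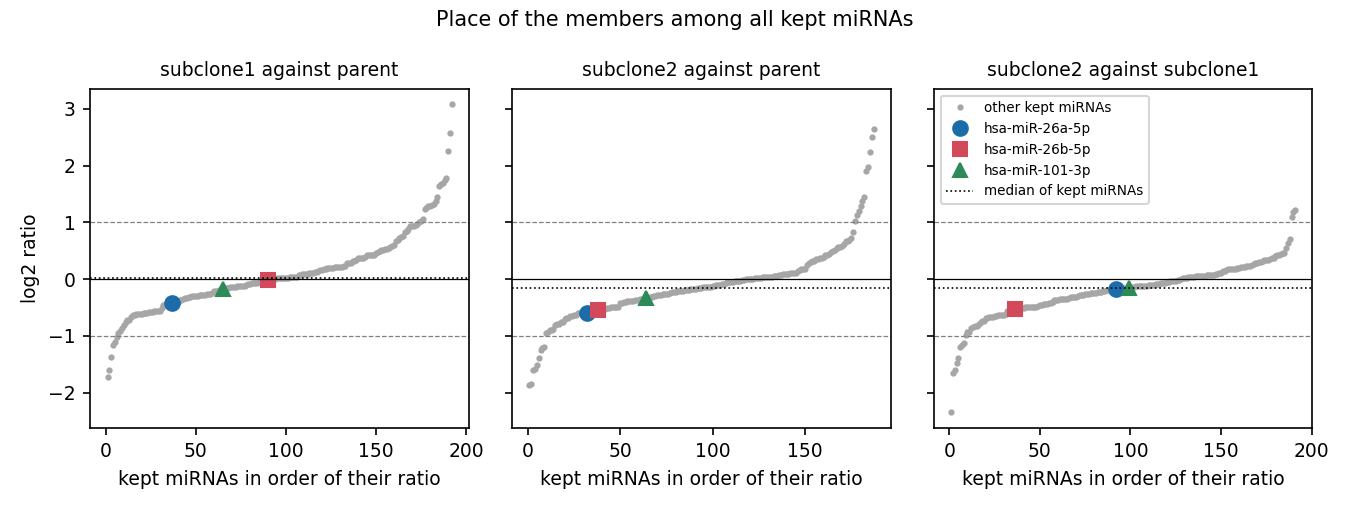
Log2 ratio (y axis) of each kept miRNA in order of its ratio (x axis) for subclone1 against parent, subclone2 against parent and subclone2 against subclone1, with solid lines at 0, dotted lines at the median and dashed lines at 2-fold. The 3 coloured strands lie inside the 2-fold lines in every panel, and hsa-miR-26a-5p lies lowest of them against the parent (-0.42 and -0.59).

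Subclone2, whose label adds the celiac lymph node, was also set against subclone1. With 1 library of each, a link to that tropism was not tested. None of the 3 strands was called, with 5.76% of 191 kept miRNAs called. miR-26b-5p was at 0.690 times its subclone1 level (interval 0.644 to 0.740, log2 -0.53). miR-26a-5p was at 0.885 times (0.819 to 0.957, log2 -0.18) and miR-101-3p at 0.898 times (0.860 to 0.937, log2 -0.16). The intervals lay below 1 for all 3, as for 44.0% of kept miRNAs. The median log2 ratio was -0.17, and relative to it miR-26b-5p lay at -0.37, with 35 of 191 miRNAs below it. miR-26a-5p (-0.010) and miR-101-3p (0.0096) lay at the median.

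How far a direction holds depended on the scaling of the libraries. With TMM factors, every log2 ratio between the subclones rose by 0.23, and those of miR-26a-5p and miR-101-3p became 0.057 and 0.077, above 0, whereas miR-26b-5p stayed below at -0.30. Every log2 ratio of subclone2 against the parent rose by 0.17 with TMM factors. Under the 4 scalings, miR-26a-5p and miR-101-3p stayed below the parent in both subclones and miR-26b-5p in subclone2, with intervals that excluded 1. In subclone1, miR-26b-5p had an interval that excluded 1 only with median-of-ratios factors (log2 -0.08) and when the 10 most abundant miRNAs of any library, 12 names in all, were left out of the totals (-0.09). The order parent, subclone1, subclone2 from highest to lowest held for all 3 strands on the file totals, as it did for 50 of 192 kept miRNAs. With TMM factors it held for miR-26b-5p, while miR-26a-5p and miR-101-3p had subclone2 above subclone1.

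**Figure D3:**
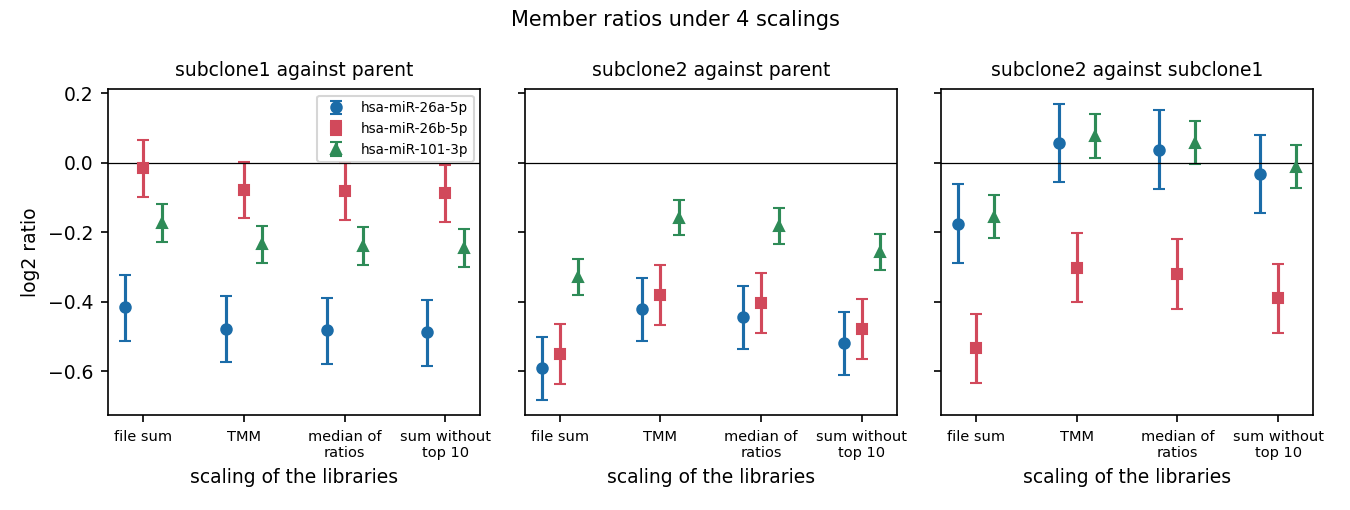
Log2 ratio (y axis) of hsa-miR-26a-5p, hsa-miR-26b-5p and hsa-miR-101-3p in each comparison under 4 scalings of the libraries (x axis), with exact 95% intervals for counting error. Between the subclones, hsa-miR-26a-5p and hsa-miR-101-3p move around 0 (-0.18 to 0.057 and -0.16 to 0.077), whereas hsa-miR-26b-5p stays below it (-0.53 to -0.30).

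Ratios between strands of the same library need no scaling. Those that take miR-26a-5p and miR-26b-5p apart still depend on how reads of these close sequences were divided, which is not known. The count of miR-26a-5p over that of miR-26b-5p was 0.911 for the parent (interval 0.870 to 0.953), 0.690 for subclone1 (0.641 to 0.743) and 0.885 for subclone2 (0.822 to 0.952). Subclone1 stood apart, at 0.758 times the parent ratio (0.694 to 0.826), while subclone2 was at 0.971 times (0.891 to 1.06), a difference not detectable at this depth. Expressed as a share, miR-26a held 47.7% of the 5p counts of miR-26 in the parent, 40.8% for subclone1 and 46.9% for subclone2.

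The count of miR-101-3p over both miR-26 strands was 1.30 for the parent (interval 1.26 to 1.34), 1.32 for subclone1 (1.26 to 1.38) and 1.54 for subclone2 (1.47 to 1.61). In this ratio subclone2 stood apart, at 1.18 times the parent (1.12 to 1.25). Subclone1 was at 1.01 times the parent (0.958 to 1.07), which hid opposite movements: miR-101-3p over miR-26a-5p was at 1.18 times the parent ratio (1.10 to 1.28) and miR-101-3p over miR-26b-5p at 0.897 times (0.838 to 0.961). Against miR-26a-5p alone, miR-101-3p did not differ detectably between the subclones (1.01 times, 0.927 to 1.11).

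**Figure D4:**
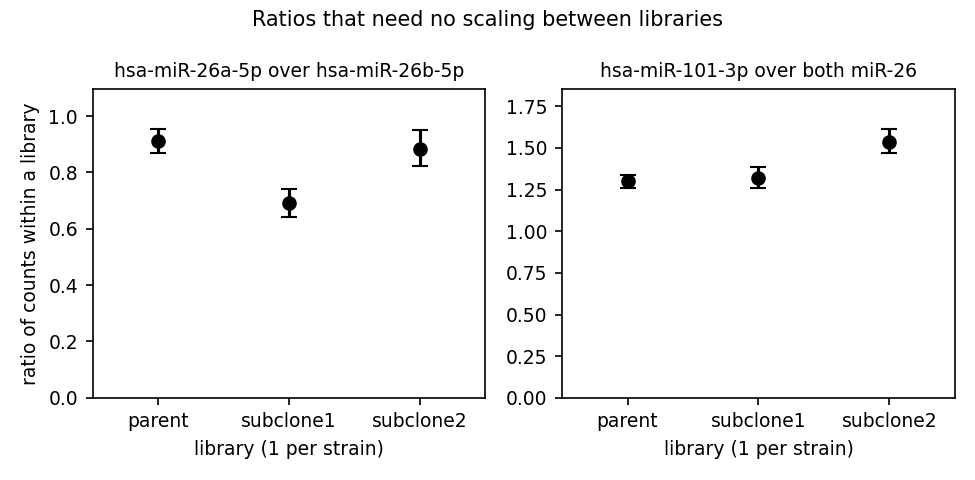
Ratio of read counts within a library (y axis, from 0) for hsa-miR-26a-5p over hsa-miR-26b-5p and for hsa-miR-101-3p over both miR-26 strands in the 3 libraries (x axis), with exact 95% binomial intervals as bars. The first ratio is lowest in subclone1 (0.690) and the second highest in subclone2 (1.54).

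Other miRNAs with the same seed could act on the same targets. hsa-miR-1297 and hsa-miR-4465 share bases 2 to 8 with miR-26, and hsa-miR-144-3p, an erythroid miRNA, shares bases 2 to 7 but not base 8 with miR-101-3p. Their sequences are shown for the shared bases.
hsa-miR-1297: uUCAAGUAauucaggug
hsa-miR-4465: cUCAAGUAgucugaccagggga
hsa-miR-144-3p: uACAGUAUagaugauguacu
All of them had 0 counts in every library. Among the matched names, the counts with the miR-26 seed were therefore those of miR-26a and miR-26b, within the limit set by a count of 0.

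The miRNAs most like each strand were sought by the distance between pairs of log2 ratios (subclone1 and subclone2 against the parent, which share the parent library) over 189 other kept miRNAs. For miR-26a-5p they were hsa-miR-1255a (distance 0.054), hsa-miR-15a-5p (0.12) and hsa-miR-125a-5p (0.12). hsa-miR-125a-5p, at 356, 276 and 254 CPM, is the most abundant of these. For miR-26b-5p they were hsa-miR-181b-5p (0.017), at 769, 769 and 523 CPM, and the identically counted hsa-miR-365b-3p and hsa-miR-365a-3p (0.066). For miR-101-3p they were hsa-miR-22-5p (0.026), hsa-miR-28-5p (0.028) and hsa-miR-130b-3p (0.046). These last had only 31.6, 33.9 and 53.7 CPM in the parent. Their log2 intervals in subclone1 against the parent were -0.54 to 0.15, -0.49 to 0.17 and -0.41 to 0.11. That of hsa-miR-1255a (33.7 CPM in the parent) was -0.81 to -0.097. Such intervals are wider than the distances, so which miRNA is nearest lies within counting error. The distances among the strands themselves were 0.40 between miR-26a-5p and miR-26b-5p, 0.36 between miR-26a-5p and miR-101-3p and 0.27 between miR-26b-5p and miR-101-3p. They cannot be set against those of the nearest miRNAs, which were picked as the smallest of 189. With 3 libraries such likeness is a description.

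miR-26 and miR-101 belong to the miRNAs often reported to be reduced in HCC. Of 20 others on a list of that kind, 8 were kept. Of these 0 were called in subclone1 (13.0% of all kept miRNAs), with a median log2 ratio of -0.06 beside 0.02 for all kept miRNAs. In subclone2 1 was called, and it was lower (4.81% of all kept miRNAs), with a median of -0.11 beside -0.15. The called miRNA was hsa-miR-34a-5p, a target of p53, at 32.3 CPM for the parent, 16.5 for subclone1 and 10.5 for subclone2 (log2 -1.61 for subclone2 against the parent). The abundant members hsa-miR-29a-3p, hsa-let-7c and hsa-let-7g-5p had log2 ratios of 0.12, 0.03 and -0.57 in subclone1 and of 0.0058, 0.17 and -0.29 in subclone2. The list thus held values on either side of 0, with 4 of the 8 below it in subclone1 and 4 in subclone2. Among those below it in both was hsa-miR-125a-5p (log2 -0.37 and -0.49), named above as near miR-26a-5p. The 3 strands of miR-26 and miR-101 lay at or below 0, which was not particular to them. Between the subclones 0 of the 8 were called (5.76% of all kept miRNAs), with a median of -0.12 beside -0.17 for all kept miRNAs.

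Of 20 miRNAs often reported to be raised in HCC, 15 were kept. In subclone1 1 was higher and 1 lower, where 9.90% and 3.12% of all kept miRNAs were, and the median log2 ratio was -0.31. In subclone2 0 were higher and 1 lower (5.88% and 4.81% of all kept miRNAs), with a median of -0.27. hsa-miR-17-5p, of the miR-17-92 cluster, was lower in both subclones (66.4, 32.8 and 28.7 CPM in the parent, subclone1 and subclone2). hsa-miR-210, which is induced by hypoxia, was called higher in subclone1 than in the parent (23.3, 56.8 and 20.4 CPM). Between the subclones it was the only miRNA of the list that was called, as lower in subclone2. In that comparison 1.57% of all kept miRNAs were called higher and 4.19% lower, and the list median was -0.19. The log2 ratio was below 0 for 11 of these 15 miRNAs in subclone1 and for 14 in subclone2, beside 92 of 192 and 120 of 187 of all kept miRNAs. Values below 0 were thus also found among miRNAs reported to move the other way in HCC.

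**Figure D5:**
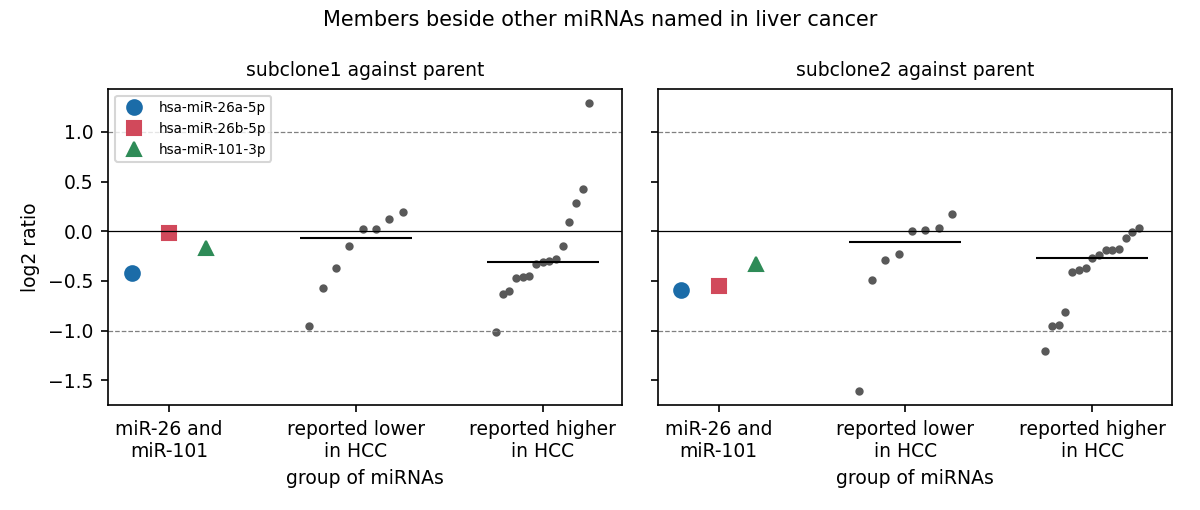
Log2 ratio (y axis) against the parent of the 3 strands and of the kept miRNAs reported to be lower (8) or higher (15) in HCC (x axis), with solid bars at the list medians and dashed lines at 2-fold. The 3 strands lie between -0.59 and -0.016, within the range of either list.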

How the data were processed

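Small RNA libraries were made from cultured cells of 3 HCCLM3 strains, per the labels with Trizol and the Illumina TruSeq Small RNA kit from 1 ug of total RNA. The authors deposited raw read counts per mature miRNA name, 1 file per strain, with no coordinates. The submitters' processing notes name CASAVA 1.4 and hg19 without a role; the trimming, aligner, miRBase release and rule for reads shared by miRNAs are not given in the sources used here. The paper's text does not describe the small RNA libraries. Ligation in such kits favours some ends, so ratios of the same miRNA between libraries are safer than levels of different miRNAs.

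Counts were divided by the library total. Each group had 1 library, so the groups were not tested against each other and p-values are absent. The depth of the shallowest library (3570864 counts) limits the counting error. Ratios have exact conditional binomial intervals, and ratios of ratios conditional odds ratio intervals (scipy 1.17.1). The code for the 2-fold rule was checked on simulated counts with known ratios, drawn with counting error only. TMM factors came from edgeR 4.0.16 and median-of-ratios factors from DESeq2 1.42.0. The named miRNAs are all names of the rule, the 3 nearest in pattern to each abundant strand, those sharing a seed, hairpin neighbours within 10 kb, called miRNAs of the HCC lists, and markers of cell types; hsa-miR-29a-3p, hsa-let-7c and hsa-let-7g-5p were added after their values were seen. The members and lists were chosen with earlier results of these data known. Sequences are from RefSeq (GRCh38.p14) and host genes from GENCODE 29, not from the count files.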

Additional observations from a re-analysis of the deposited data

How the results depend on the processing

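No paired analysis was possible because every strain had 1 library; leaving out a library was likewise not possible. Of 84 values under the alternatives, 51 stayed within their interval or within 1.5 times their count, and 33 moved further. Reversal was counted for called ratios only, and no member ratio was called, so none could be counted. Between the subclones, the ratios of hsa-miR-26a-5p and hsa-miR-101-3p did change sign with TMM and median-of-ratios scaling. With TMM, median-of-ratios and total-without-top-10 scaling (12 names left out), in that order, hsa-miR-101-3p had log2 ratios of -0.23, -0.24 and -0.24 in subclone1 against the parent, -0.16, -0.18 and -0.26 in subclone2 against the parent, and 0.077, 0.058 and -0.012 between the subclones. Between the subclones hsa-miR-26a-5p had 0.057, 0.038 and -0.032, and hsa-miR-26b-5p had -0.30, -0.32 and -0.39. In subclone2 against the parent TMM and median-of-ratios scaling gave -0.42 and -0.45 for hsa-miR-26a-5p and -0.38 and -0.40 for hsa-miR-26b-5p. With the reads of both miR-26 strands summed, the log2 ratio was -0.19 in subclone1 against the parent and -0.38 between the subclones. A pseudocount of 5 left all 9 ratios within their intervals. A 1.5-fold threshold called 1 of the names, hsa-miR-26a-5p in subclone2 against the parent, and 56, 50 and 36 of all kept miRNAs in the 3 comparisons; a minimum of 100 CPM called 7, 5 and 2, and no minimum 67, 75 and 33, in place of 25, 20 and 11. Depth limits the passenger strands, where a count of 0 cannot show an absence.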
